A study of Homo sapiens with 8 samples.

Results

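The ERBB receptors and their EGF-like ligands were described in bulk RNA-seq libraries whose cells are labelled A549. The members were taken from the count table by gene name, and 10 of its 58735 genes were chosen, 4 receptors (EGFR, ERBB2, ERBB3 and ERBB4) and 6 ligands (TGFA, HBEGF, AREG, EREG, BTC and EGF). A549 is an established human lung adenocarcinoma line. The EV group held 4 libraries of cells carrying an empty lentiviral vector, and the KRT19 group held 4 libraries of cells transduced with a lentivirus for Flag-tagged KRT19, keratin 19 of epithelial intermediate filaments. Both groups were selected with puromycin into stable lines, so lasting overexpression was set against the vector, and the sources used here name no clones or repeated transductions. Nothing in the sample descriptions said that the replicates of a group came from separate cultures, so p-values measured only the spread between these libraries, which may be technical.

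ERBB receptors are tyrosine kinases of the cell surface that pair with each other when an EGF-like ligand binds. ERBB2 has no known ligand of its own and ERBB3 has little kinase activity, so both act mainly as partners. The ligands are made as membrane-bound precursors that metalloproteases such as ADAM17 release, and the activated receptors signal through RAS and ERK and through PI3K and AKT. In lung adenocarcinoma EGFR is a frequent driver and drug target.

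Library depth ranged from 14073065 to 17054364 counts. KRT19 replicate 3 stood apart. Its chi-square over genes, divided by the degrees of freedom, was 7.77 to 13.6 against the other KRT19 libraries, and other replicate pairs gave 2.82 to 6.53. By edgeR, without this library 0 members passed the adjusted threshold or an unadjusted p of 0.05, with log2 fold changes (KRT19 minus EV) of 0.0016 for EGFR, 0.0033 for ERBB2, -0.13 for ERBB3, -0.14 for TGFA and 0.070 for HBEGF. KRT19 was at 1 to 5 counts in the EV libraries and 4353 to 5147 counts in the KRT19 libraries, which matched the group labels. The EV libraries thus held almost no KRT19 transcript, whereas the paper reports co-immunoprecipitation of endogenous KRT19 protein in A549 cells. The quasi-likelihood test of edgeR, adjusted by the Benjamini-Hochberg method, gave KRT19 a log2 fold change of 10.75 ± 0.12 (SE) at an adjusted p of 5.19e-20. KRT19 was the 1 gene of 14621 tested that passed an adjusted p of 0.05. Among markers of the labelled line, KRT8 was at 189 to 231 CPM (counts scaled to a common library size by TMM) and KRT18 at 274 to 347 CPM, but EPCAM had at most 3 counts, CDH1 at most 1 and NKX2-1 at most 4 in any library. CDKN2A and MTAP, which are deleted in A549, were at 94.2 to 108 CPM and 41.8 to 50.9 CPM, AKR1C1 and AKR1B10, both abundant in A549, had at most 22 and 14 counts, and VIM was at 2285 to 2548 CPM. NQO1 at 424 to 453 CPM was abundant, as A549 is known for. The deleted genes and the absent epithelial and lung markers went against the label, and the libraries are named below by their labels only. The retina marker RCVRN was at 0 and CRX had at most 1 count, although the extraction text spoke of retinas, and PTPRC and CD3E of leukocytes had at most 1 and 0 counts.

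The family split into genes with over 100 reads in every library and genes with a handful, and promoter sequences are shown for both kinds because they are the shared sequence data of the members that the choice by name did not use. RefSeq promoters (GRCh38.p14) were found for 9 of the 10 members, and ERBB3 was not in the table. Each window below holds the 250 bases before the RefSeq transcription start nearest to the start of the gene in the count table, 5′ to 3′ on the strand of the gene. Capitals mark TATAAA, the core of the TATA box, and GGGCGG or its complement CCGCCC, the GC box, where neighbouring boxes may share a base. EGFR and HBEGF are examples of the detected members, and AREG and EREG are the neighbouring ligand genes that were close to or at 0. They do not represent all members. ERBB2, also detected, had no GC box in its window, and HBEGF had the most. BTC, EGF and ERBB4, also low, had no TATAAA.
EGFR, chr7:55018767-55019016, plus strand: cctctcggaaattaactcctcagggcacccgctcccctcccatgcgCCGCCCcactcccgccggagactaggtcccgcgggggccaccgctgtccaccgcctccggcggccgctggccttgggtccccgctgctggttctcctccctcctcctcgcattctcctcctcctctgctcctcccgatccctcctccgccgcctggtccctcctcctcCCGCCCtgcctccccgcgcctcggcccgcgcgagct
HBEGF, chr5:140346604-140346853, minus strand: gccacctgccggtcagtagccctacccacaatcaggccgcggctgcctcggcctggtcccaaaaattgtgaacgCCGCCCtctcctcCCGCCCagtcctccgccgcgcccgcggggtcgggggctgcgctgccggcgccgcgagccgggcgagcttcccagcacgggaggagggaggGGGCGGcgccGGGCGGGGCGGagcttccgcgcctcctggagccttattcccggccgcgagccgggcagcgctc
AREG, chr4:74444886-74445135, plus strand: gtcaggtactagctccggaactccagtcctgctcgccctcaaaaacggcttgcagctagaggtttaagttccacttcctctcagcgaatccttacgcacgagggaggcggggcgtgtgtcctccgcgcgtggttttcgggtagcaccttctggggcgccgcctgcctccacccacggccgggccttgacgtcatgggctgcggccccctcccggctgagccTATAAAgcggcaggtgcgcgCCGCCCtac
EREG, chr4:74364895-74365144, plus strand: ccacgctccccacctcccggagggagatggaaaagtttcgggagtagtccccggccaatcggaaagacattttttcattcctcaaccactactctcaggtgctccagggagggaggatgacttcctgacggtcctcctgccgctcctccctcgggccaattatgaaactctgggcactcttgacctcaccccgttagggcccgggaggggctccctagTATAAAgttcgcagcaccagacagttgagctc

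The CpG content of the promoters differed between members. Of 35116 promoters in the table, the median window held 11 CpG, with quartiles of 3 and 23. HBEGF had 33 CpG, at percentile 91.9 of all promoters, TGFA had 27 (82.3), EGFR 25 (78.4) and ERBB2 23 (74.2). Among the members near 0, AREG held 23 CpG as ERBB2 did, ERBB4 had 14 (percentile 55.2), EREG 11 (49.7), BTC 8 (43.7) and EGF 3 (22.9). GGGCGG, searched on both strands and counted with overlaps, occurred in 42.6% of all promoters. It was found 5 times in HBEGF, 3 times in TGFA, 2 times in EGFR and 1 time each in AREG and ERBB4, but in neither ERBB2, EREG, BTC nor EGF. TATAAA on either strand occurred in 10.7% of all promoters and, among the members, in AREG and EREG, where its first base lay 29 and 32 bases before the start. TGACTCA, the AP-1 site, occurred on either strand in 4.2% of all promoters and in 1 member, EGF. These matches describe letters in a window and were not tested. The RefSeq start used lay 180 bases from the gene start of the count table for ERBB2, 367 for TGFA and 163 for BTC. For the other matched members it lay at most 39 bases away. ERBB2 overlaps PGAP3 on the opposite strand, and whether its window holds a promoter in use for ERBB2 was not tested.

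The order of the members by level had separate steps and overlapping neighbours, and its top depended on the gene length used. To compare genes, counts were divided by the gene length of the table and the library size (FPKM), and 2 neighbours in the order were called separate where their ranges over the 8 libraries did not overlap. TGFA, a ligand of EGFR, had the highest FPKM, with a median of 8.13 and a range of 7.08 to 9.25. EGFR followed with a median of 6.65 FPKM (6.16 to 6.92), below TGFA in 8 of 8 libraries. ERBB2 had a median of 4.22 FPKM (3.63 to 4.59) and HBEGF, heparin-binding EGF-like growth factor, one of 4.17 FPKM (3.53 to 4.69). These last values were not separate, since ERBB2 was above HBEGF in only 4 of 8 libraries. ERBB3 was lower, with a median of 1.16 FPKM (0.946 to 1.39). AREG and BTC were at 0.178 and 0.124 FPKM and overlapped, as did EGF at 0.0355 FPKM and ERBB4 at 0.00916 FPKM, and EREG had no read.

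The length that is divided by changed the top of this order. The table counts all exonic bases of a gene, 12521 for EGFR, 10321 for ERBB2 and 4963 for TGFA, and the longest coding transcript in GENCODE 29 has 9821, 4792 and 4310 bases. With transcript lengths, chosen after seeing the data, the medians were 9.36 FPKM for TGFA, 9.08 FPKM for ERBB2 and 8.47 FPKM for EGFR, so ERBB2 moved above EGFR and the ranges of neighbours among these genes overlapped. HBEGF at 5.27 FPKM and ERBB3 at 1.77 FPKM stayed below them.

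**Figure D1:**
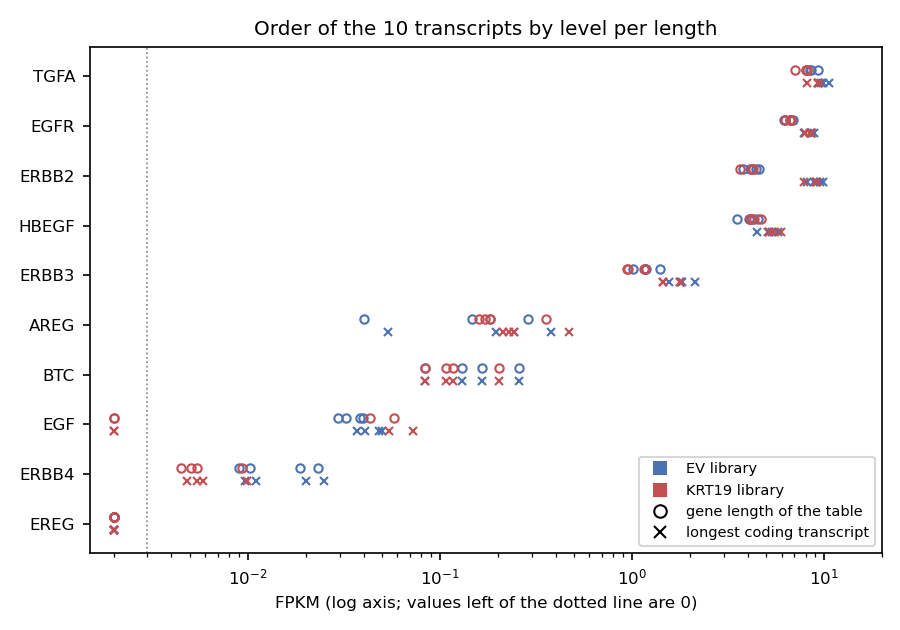
Level of each of the 10 members in every library, in FPKM on a log axis with values of 0 left of the dotted line, EV in blue and KRT19 in red, as circles for the gene length of the table and crosses for the longest coding transcript. As circles, TGFA, EGFR, ERBB2 and HBEGF lie between 3.53 and 9.25 FPKM, ERBB3 near 1, and AREG, BTC, EGF, ERBB4 and EREG below 0.4.

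Within the family, EGFR made up most of the receptor signal per length. Its share of the summed FPKM of the 4 receptors was 54.6% ± 2.78 (SD, n = 4) for EV and 56.1% ± 2.06 for KRT19. ERBB2 held 35.3% ± 2.41 and 34.9% ± 1.92, and ERBB3 10.0% ± 1.42 and 9.0% ± 0.711. ERBB4 contributed 0.129% and 0.0522%. TGFA held 65.8% ± 3.50 of the ligand FPKM for EV and 62.6% ± 2.91 for KRT19, and HBEGF held 31.4% ± 2.96 and 34.4% ± 2.95. The mean shares of AREG, BTC and EGF were each under 2% in both groups, and EREG held 0. The summed receptor level was 11.9 ± 0.341 FPKM for EV and 11.7 ± 0.458 FPKM for KRT19, and the summed ligand level was 13 ± 0.357 and 12.5 ± 0.319 FPKM. No test was made on shares or sums. With transcript lengths the mean share over both groups was 43.9% in place of 55.3% for EGFR and 47.0% in place of 35.1% for ERBB2.

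**Figure D2:**
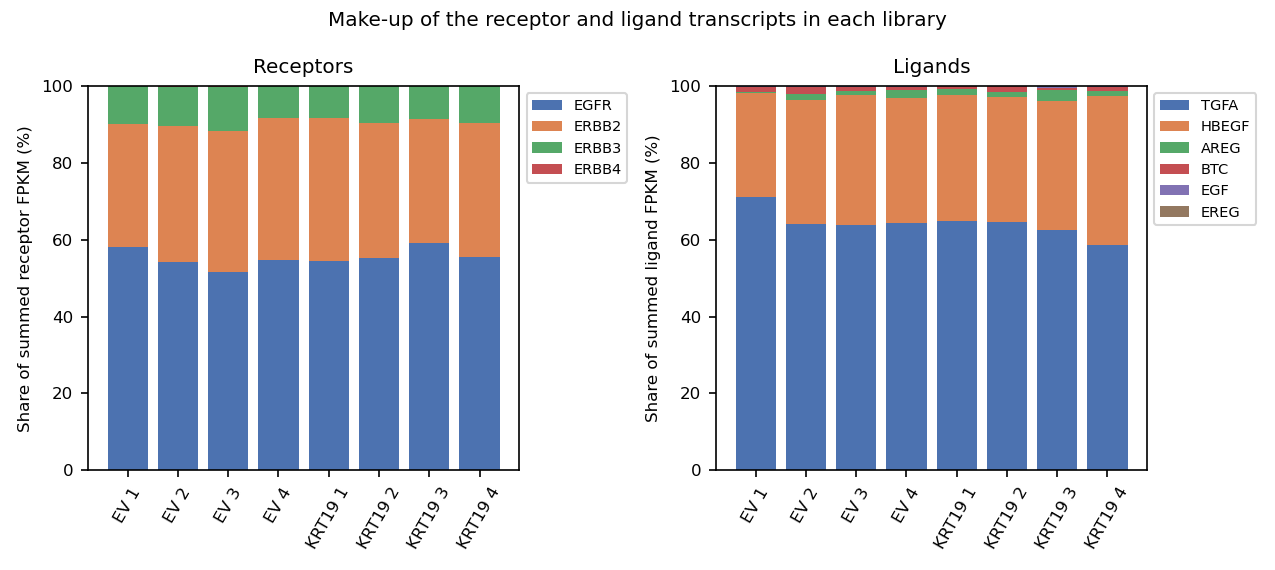
Share of each receptor in the summed FPKM of the 4 receptors and of each ligand in that of the 6 ligands, in percent, with 1 stacked bar per library. EGFR holds 51.5% to 59.1% of the receptor bar and TGFA 58.5% to 71.1% of the ligand bar over the 8 libraries.

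To ask whether KRT19 overexpression altered the family, the groups were compared gene by gene with edgeR over all 14621 genes that passed the filter on low counts. Of the 10 members, 5 were tested (EGFR, ERBB2, ERBB3, TGFA and HBEGF) and 5 were below the filter. None of the 5 passed an adjusted p of 0.05, against 0.00684% of all genes tested, and none reached an unadjusted p of 0.05, against 5.41% (2.85% higher and 2.56% lower in the KRT19 group). The counts by DESeq2 were 0 and 0, against 0.0342% and 3.97% of all genes. By limma-voom they were 0 and 1, the latter being TGFA, against 0.0547% and 9.14% of all genes. In 0 of 5 members were the groups free of overlap, against 3.44% of all genes tested (1.63% higher and 1.81% lower). The difference was below 0 in 3 of the 5, against 47.8% of all genes. In bulk RNA such as this, fewer cells of a type and less RNA per cell cannot be told apart.

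EGFR (ENSG00000146648, chromosome 7, 55019021 to 55211628, plus strand, GRCh38), a receptor of these ligands, had 86.6, 78.2, 77.1 and 84.6 CPM in EV replicates 1 to 4 and 77.9, 83.8, 82.9 and 83.6 CPM in KRT19 replicates 1 to 4. Every KRT19 value lay within the EV range. The means were 81.6 ± 4.66 CPM (SD, n = 4) and 82.0 ± 2.79 CPM, which gave a log2 fold change of 0.0066 ± 0.056 (SE) and an adjusted p of 0.991. The 95% interval ran from a fold of 0.925 to 1.09. These values rest on 1178 to 1438 counts per library, which makes EGFR the most deeply read member.

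ERBB2 (ENSG00000141736, chromosome 17, 39687914 to 39730426, plus strand), the partner receptor without a known ligand, had 39.0, 42.2, 45.3 and 47.4 CPM in the EV libraries and 43.6, 43.9, 37.4 and 43.4 CPM in the KRT19 libraries. KRT19 replicate 3 was the lowest of all 8, and the other KRT19 values lay inside the EV range. The log2 fold change was -0.050 ± 0.072, with an interval from a fold of 0.869 to 1.07 and an adjusted p of 0.956. Without KRT19 replicate 3 it was 0.0033, and without EV replicate 1 it was -0.098. The gene overlaps MIEN1 and PGAP3 on the opposite strand, which had 312 to 386 and 122 to 214 counts, and 2.63% of its 75-base words also occur in them. The use of strand in counting was not given in the sources used here, so reads in the overlap are uncertain.

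ERBB3 (ENSG00000065361, chromosome 12, 56076799 to 56103505, plus strand), the receptor of neuregulins that recruits PI3K, had 10.6, 10.7, 12.6 and 9.18 CPM in the EV libraries and 8.57, 10.5, 8.55 and 10.5 CPM in the KRT19 libraries. KRT19 replicates 1 and 3 lay below all EV libraries, whereas replicates 2 and 4 lay among them. The means were 10.8 ± 1.40 CPM and 9.53 ± 1.11 CPM. The log2 fold change was -0.18 ± 0.12, with an interval from a fold of 0.745 to 1.04, an unadjusted p of 0.134 and an adjusted p of 0.906. Without EV replicate 4 it was -0.25 at an unadjusted p of 0.0494, without EV replicate 3 it was -0.097 at 0.420, and by limma-voom it was -0.050 at 0.646. The 142 to 207 counts per library give a counting error of 7.86%, beside a spread between replicates of 13% and 11.7%.

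TGFA (ENSG00000163235, chromosome 2, 70447280 to 70554193, minus strand), transforming growth factor alpha, had 45.9, 41.6, 42.4 and 40.1 CPM in the EV libraries and 40.3, 40.4, 39.9 and 35.1 CPM in the KRT19 libraries. KRT19 replicates 1 and 2 were above the lowest EV library, EV replicate 4, so the groups overlapped, and KRT19 replicate 4 stood below the rest. The means were 42.5 ± 2.48 CPM and 38.9 ± 2.53 CPM. The log2 fold change was -0.13 ± 0.066, with an interval from a fold of 0.832 to 1.01. This was the smallest p of any member at 0.0713 unadjusted, which ranked 1129 of 14621 genes and gave an adjusted p of 0.906. The two-sided exact permutation test of the library labels gave 0.0857, where 4 against 4 can reach 0.0286. Without KRT19 replicate 4 the log2 fold change was -0.081, and without EV replicate 1 it was -0.088.

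HBEGF (ENSG00000113070, chromosome 5, 140332843 to 140346631, minus strand), a ligand of EGFR and ERBB4, had 10.6, 12.8, 13.7 and 12.2 CPM in the EV libraries and 12.4, 12.4, 13.1 and 14.2 CPM in the KRT19 libraries. EV replicate 1 was the lowest and KRT19 replicate 4 the highest, and the others were mixed. The log2 fold change was 0.073 ± 0.096, with an interval from a fold of 0.914 to 1.21 and an adjusted p of 0.952. Without EV replicate 1 it was 0.010, without KRT19 replicate 4 it was 0.030, and without EV replicate 3 it was 0.13. The exact permutation tests of EGFR, ERBB2, ERBB3 and HBEGF gave p from 0.143 to 0.971.

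**Figure D3:**
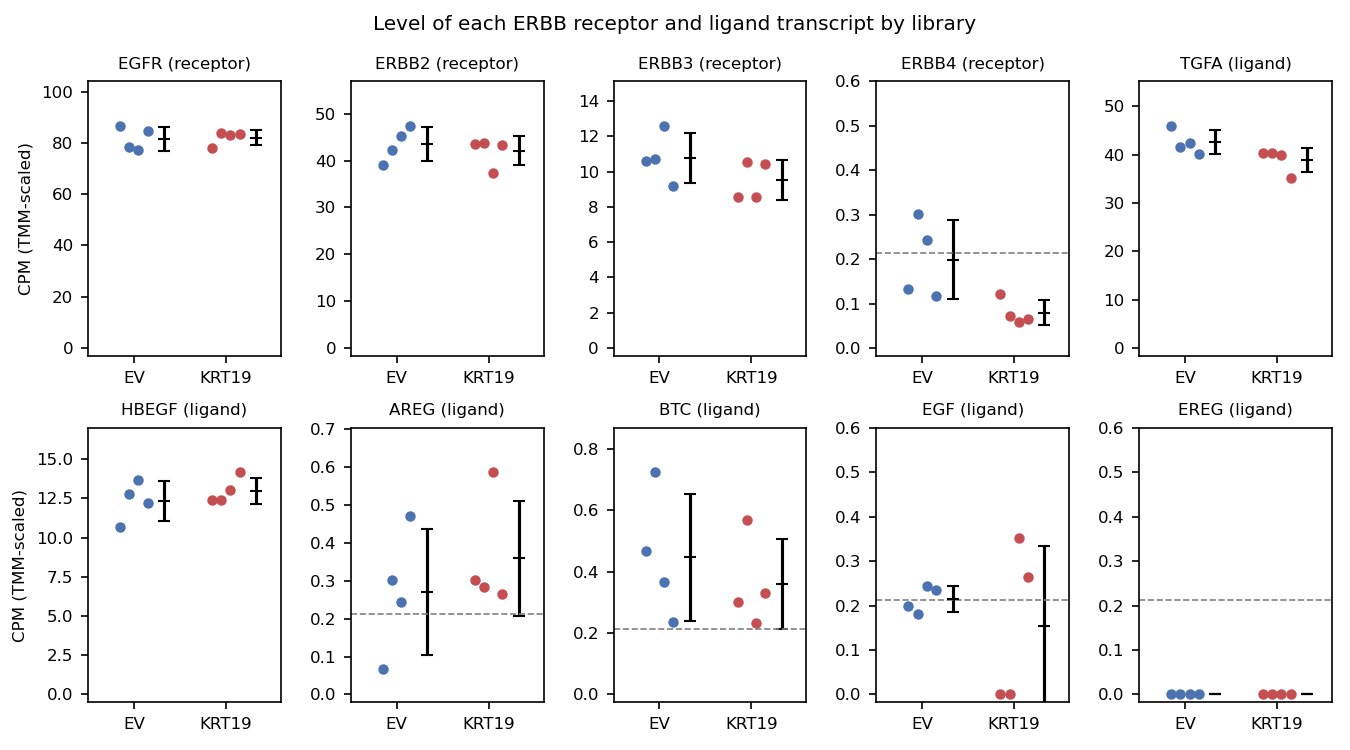
CPM of the 10 members in each library, EV and KRT19 side by side, with the mean and SD of each group as a short line with whiskers (the lower whisker of EGF in the KRT19 group runs past 0) and each panel on its own linear axis. The dashed line is the highest level that 3 counts give in any library, 0.213 CPM, and the groups overlap in every panel.

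The 5 members below the filter on low counts had at most 12 counts in a library, and 3 counts, the floor used here, correspond to 0.176 to 0.213 CPM. BTC (ENSG00000174808, chromosome 4, 74744759 to 74794686, minus strand), betacellulin, had 7, 12, 6 and 4 counts in the EV libraries and 5, 8, 4 and 5 counts in the KRT19 libraries. AREG (ENSG00000109321, chromosome 4, 74445134 to 74455009, plus strand), amphiregulin, had 1, 5, 4 and 8 counts against 5, 4, 10 and 4 counts. EGF (ENSG00000138798, chromosome 4, 109912884 to 110012266, plus strand) had 3, 3, 4 and 4 counts against 0, 0, 6 and 4 counts. In each of these ligands the groups overlapped, and the EGF reads of the KRT19 group came from replicates 3 and 4. ERBB4 (ENSG00000178568, chromosome 2, 211375717 to 212538841, minus strand), a further neuregulin receptor, had 2, 5, 4 and 2 counts in the EV libraries and 2, 1, 1 and 1 counts in the KRT19 libraries, so 6 of the 8 were at or under the floor. EREG (ENSG00000124882, chromosome 4, 74365143 to 74388751, plus strand), epiregulin, had 0 counts in all 8 libraries, which allows up to 0.176 to 0.213 CPM in a single library.

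Pooled over a group, the counts bounded the ratio of KRT19 to EV only loosely. For ERBB4 the 5 counts against 13 gave a ratio of 0.398, with a 95% interval of 0.111 to 1.19. AREG had 23 against 18 counts and a ratio of 1.32 (0.683 to 2.60), BTC 22 against 29 and 0.786 (0.430 to 1.42), and EGF 10 against 14 and 0.740 (0.294 to 1.79). These are exact binomial intervals for the ratio and cover counting error only, since several reads may come from 1 molecule. All 4 intervals include equal levels. With a looser filter of at least 1 count over all libraries, edgeR gave unadjusted p of 0.151 for ERBB4, 0.480 for AREG, 0.501 for BTC and 0.559 for EGF, with adjusted p from 0.761 to 0.908. BTC, above 3 counts in every library, had an exact permutation p of 0.571. No difference was detectable at this depth.

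Of the low ligand genes, EREG, AREG and BTC lay close together, whereas EGF lay elsewhere on chromosome 4. EPGN, EREG, AREG and BTC are the 4 protein-coding genes of the table within 486 kb of chromosome 4 (74308473 to 74794686), and 0 of them passed the filter on low counts. EPGN, epigen, had at most 1 count. The flanking genes of the same chromosome were read, with 154 to 272 counts for MTHFD2L and 15 to 22 counts for PARM1. The chemokine gene CXCL2 beyond MTHFD2L had 1032 to 1415 counts, whereas CXCL5 was at 0.

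**Figure D4:**
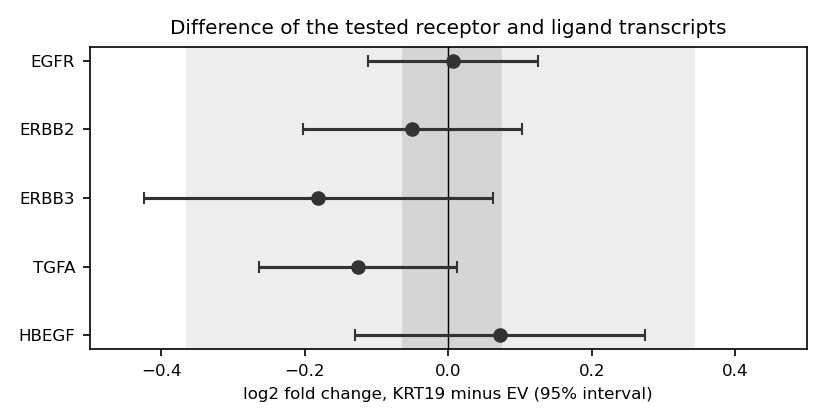
Log2 fold change (KRT19 minus EV) of the 5 tested members with 95% intervals, over grey bands that hold the middle 50% and 95% of all 14621 tested genes. All 5 intervals include 0 and the points lie between -0.18 and 0.073, within the 95% band of -0.36 to 0.34.

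The differences of the members were of the size seen across the transcriptome. Over all genes tested the median log2 fold change was 0.0051 and the median of its absolute value was 0.068, and 95% of genes lay between -0.36 and 0.34. Over the 5 tested members the median was -0.050. After removal of the group means, Pearson's r of log2 CPM between pairs of members over the 8 libraries ran from -0.73 for TGFA and HBEGF to 0.43 for ERBB3 and HBEGF, with libraries and scaling shared. By the same measure, the genes most like EGFR among 10825 compared were AQR (r = 0.993), TMEM209 (0.990) and PSD3 (0.971), and those most like TGFA were ADM (0.996), TOB1 (0.982) and KDM6A (0.974). These r values were picked as the highest of many over 8 libraries and are given as a description.

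The genes around the receptors were read from lists of other ligands, sheddases, adaptors and RAS-ERK kinases, PI3K, PLC and STAT genes, inhibitors and trafficking genes, and transcripts known to follow ERK activity. Of 86 listed genes 78 were tested. By edgeR 0 passed the adjusted threshold, and DESeq2 and limma-voom also gave 0. At an unadjusted p under 0.05 there were 3 higher and 1 lower in the KRT19 group, 5.13% of the listed genes against 5.41% of all genes, while DESeq2 gave 3 such genes (3.85% against 3.97% of all genes) and limma-voom 8 (10.3% against 9.14%). The log2 fold change was below 0 in 53 of the 78 (67.9%), against 47.8% of all genes, and its median was -0.016, against 0.0051 over all genes.

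Of the 5 other ligands, NRG1 and NRG2, neuregulins that bind ERBB3 and ERBB4, were tested. NRG1 was at 32.2 ± 3.81 CPM for EV and 33.4 ± 2.90 CPM for KRT19, a log2 fold change of 0.051 ± 0.085. NRG2 was at 37.2 ± 2.54 and 35.6 ± 2.02 CPM, a log2 fold change of -0.062 ± 0.067. By the gene length of the table, NRG2 at a median of 7.98 FPKM was close to TGFA and NRG1 was at 2.98 FPKM. Transcript lengths were not applied to these genes. NRG3 was at 0 counts and NRG4 at no more than 5. Of 11 shedding genes 10 were tested, and 0 reached an unadjusted p of 0.05 in either direction, with a median of -0.036, while limma-voom gave 1 such gene. ADAM17, the main sheddase of TGFA, HBEGF and AREG, was at 58.1 ± 4.29 and 56.2 ± 1.2 CPM.

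Of 17 adaptor and RAS-ERK genes all were tested, with 1 higher at an unadjusted p under 0.05 and a median of -0.0059. This gene was PTPN11, the phosphatase SHP2 that links receptors to RAS, at 170.2 to 198.5 CPM in the EV group and 188.7 to 221.8 CPM in the KRT19 group, with a log2 fold change of 0.13 ± 0.059, an unadjusted p of 0.0490 and overlapping groups. In 9 of 15 alternatives this p was above 0.05, DESeq2 (0.0525) and the replicate block (0.113) among them, and the value was 0.082 without EV replicate 3 and 0.086 without KRT19 replicate 3. Of 17 PI3K, PLC and STAT genes 15 were tested, none at an unadjusted p under 0.05, with a median of -0.016, while limma-voom and the fit without EV replicate 1 gave 1 such gene each.

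Of 20 inhibitor and trafficking genes 18 were tested, with 1 higher at an unadjusted p under 0.05 and a median of 0.017. This gene was PTPN2, a phosphatase that acts on EGFR and JAK kinases, at 57.2 to 62.8 CPM in the EV group and 64.0 to 67.0 CPM in the KRT19 group, with no overlap. Its log2 fold change was 0.14 ± 0.054, at an unadjusted p of 0.0160 and an adjusted p of 0.906. Without EV replicate 2 the unadjusted p was 0.0504, the 1 alternative of 15 above 0.05. ERRFI1, the feedback inhibitor of EGFR also called MIG6, was at 921 ± 30.2 and 873 ± 28.5 CPM, a log2 fold change of -0.077 ± 0.045 at an unadjusted p of 0.100.

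Of 16 transcripts that follow ERK activity all were tested, with 1 higher and 1 lower at an unadjusted p under 0.05 (12.5% against 5.41% of all genes) and a median of -0.038. The count of 2 was 4 by limma-voom, 3 without KRT19 replicate 3, and 1 with the replicate block, without EV replicate 2 or without KRT19 replicate 1. DUSP6, the phosphatase that ERK induces against itself, was at 51.9 to 56.7 CPM in the EV group and 42.1 to 48.8 CPM in the KRT19 group, with no overlap. Its log2 fold change was -0.22 ± 0.061, at an unadjusted p of 0.00190, the smallest of all listed genes, and an adjusted p of 0.766. FOSL1, the AP-1 subunit FRA1, was at 370.5 to 384.0 CPM and 395.9 to 424.5 CPM, also with no overlap and in the other direction, with a log2 fold change of 0.11 ± 0.044 and an unadjusted p of 0.0241. For FOSL1 the unadjusted p was above 0.05 in 3 of 15 alternatives, with the replicate block (0.0851), without EV replicate 2 (0.0681) and without KRT19 replicate 1 (0.0756), and for DUSP6 in 0 of 15. Groups without overlap were thus found in 3 of the 78 listed genes, 2 higher and 1 lower, against 3.44% of all genes tested.

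**Figure D5:**
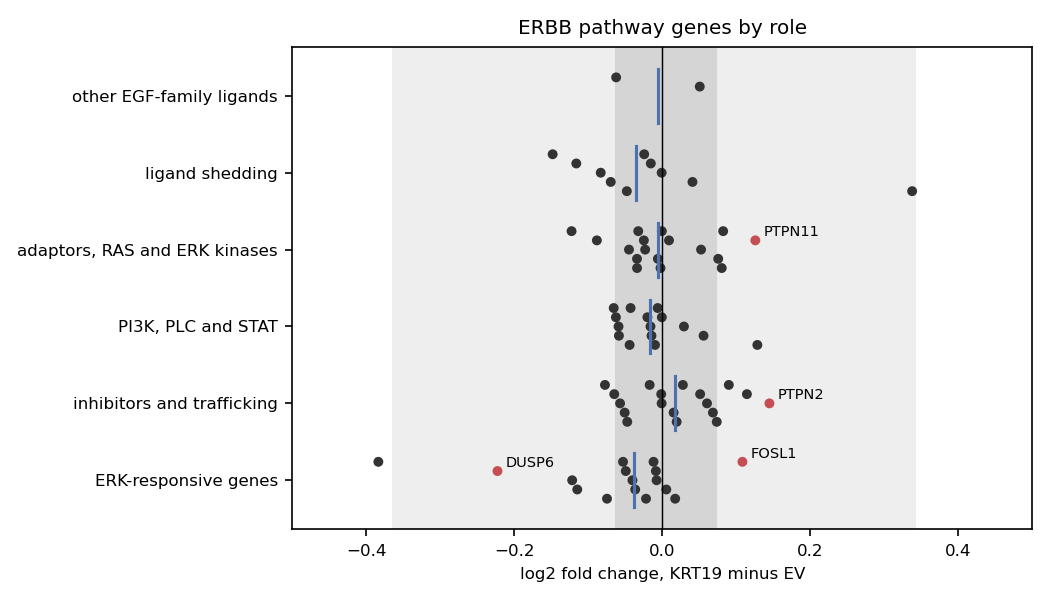
Log2 fold change (KRT19 minus EV) of the tested genes of each list around the ERBB receptors, with 1 point per gene, red points for an unadjusted p under 0.05 and a blue line for the median of the list. The list medians lie between -0.038 and 0.017, and the red points are DUSP6 below 0 and FOSL1, PTPN2 and PTPN11 above 0.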

How the data were processed

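Total RNA was sequenced from 8 libraries, and the table that the authors deposited holds their raw counts for each gene, not normalized. The submitters' processing notes name Bowtie 0.12.2, featureCounts 1.5.0-p3, DESeq2 and hg38, with no role or order, and the handling of strand and of reads that match several genes was not given in the sources used here. All 58735 gene identifiers and coordinates matched GENCODE 29, and 58708 names did. Groups came from the sample titles.

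Analysis used edgeR 4.0.16 and limma 3.58.1 under R 4.3.3. After filterByExpr (minimum count 10, minimum total 15), 14621 genes remained, which held 99.8% or more of every library. TMM factors scaled the libraries, and the groups were compared with glmQLFit and glmQLFTest over all 8 libraries, with Benjamini-Hochberg adjustment over all genes and a threshold of 0.05. The standard error of a log2 fold change is that value over the square root of F. Log2 CPM used a prior count of 2. FPKM was computed from the counts and the gene lengths of the table. Single members were also compared by two-sided exact permutation of library labels. The rule for named genes took every member, KRT19, up to 5 genes per list at an unadjusted p under 0.05, and the 3 genes most like the highest receptor and ligand (mean CPM of at least 5). Other genes named were chosen after their values were seen. The members and lists were chosen with earlier results of these data known. Shared sequence was measured on GENCODE 29 transcripts as 75-base words, of which 1 in 8 was kept.

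Alternatives were DESeq2 size factors as offsets, upper-quartile scaling, the Wald test of DESeq2 1.42.0, limma-voom weighting libraries by quality, a filter as loose as 1 count in all, a stricter filter (5 CPM in 4 libraries), a replicate block, and leaving out each library. To look for a library deposited more than once, replicates were compared by chi-square (2.82 to 13.6 per degree of freedom), and no pair agreed within sampling noise, the highest values being those of KRT19 replicate 3. This does not show that they are separate cultures. The procedure was tested on simulated data. Protein sequences of the members were not analysed here, and some marker genes are not reported here.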

Additional observations from a re-analysis of the deposited data

Results flagged for a closer look

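In 3 of 12 group values (the 5 members tested and BTC, in both groups), 1 KRT19 library lay farther from its group than Dixon's 95% critical value allows for 4 samples, where chance alone flags about 5% of groups. For EGFR, KRT19 replicate 1 had a log2 CPM of 6.29 against 6.37 to 6.39 in the other 3, a gap of 0.850 of the range. For ERBB2, KRT19 replicate 3 had 5.23 against 5.44 to 5.46, a gap of 0.932. For TGFA, KRT19 replicate 4 had 5.14 against 5.32 to 5.34, a gap of 0.908. The 3 libraries are different ones, and each is the lowest of its group. The cause was not tested.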

How the results depend on the processing

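Over 15 alternatives, 8 of which left out 1 library, 75 member values were computed and 0 passed the adjusted threshold, while 6 turned direction. EGFR turned to -0.0053 with upper-quartile normalization, and over the left-out libraries it ran from -0.019 (without EV replicate 3) to 0.036, also turning to -0.015, -0.0034 and -0.0024 without EV replicate 2, KRT19 replicate 2 and KRT19 replicate 4. ERBB2 ran from -0.098 to 0.0033 (without KRT19 replicate 3). ERBB3 lay between -0.25 and -0.050 and TGFA between -0.15 and -0.081 over all alternatives, and HBEGF between 0.010 and 0.13. The adjusted p of TGFA ran from 0.50 to 1.000.

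Members at an unadjusted p under 0.05 went from 0 to 1 with upper-quartile normalization (TGFA, 0.0480) and limma-voom (TGFA, 0.0281) and ran from 0 to 1 over left-out libraries (ERBB3 without EV replicate 4). All genes past the adjusted threshold went from 1 to 5 (DESeq2), 8 (limma-voom) and 71 (looser filter, 30250 genes), and from 1 to 5 over left-out libraries, with 5 without KRT19 replicate 3 and 3 without EV replicate 1. At an unadjusted p they went from 791 to 1337 (limma-voom), 1559 (looser filter) and 451 (replicate block), and from 620 to 1228 over left-out libraries, the last without KRT19 replicate 1. Listed genes at an unadjusted p went from 4 to 8 (limma-voom) and 2 (replicate block), and from 2 (without EV replicate 2) to 5 over left-out libraries. With upper-quartile normalization 40.5% of genes at an unadjusted p were higher, against 52.7%. DUSP6 lay between -0.25 and -0.18, FOSL1 between 0.089 and 0.12, PTPN2 between 0.13 and 0.17 and PTPN11 between 0.082 and 0.16. With transcript lengths the receptor shares were 43.9% for EGFR and 47.0% for ERBB2. The cause of these moves was not tested. The looser filter also tested more genes, and the transcript lengths are others by construction.

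Libraries of the same number did not deviate together (r of -0.111, -0.0239, -0.159 and 0.0567). No pairing by number was seen in these values, but they cannot exclude that same-numbered libraries were prepared together. With a replicate block TGFA was at -0.13 (unadjusted p = 0.0988), ERBB3 at -0.18, ERBB2 at -0.048, EGFR at 0.0077 and HBEGF at 0.077. At these depths HBEGF and ERBB3 carry counting errors of 7.03% and 7.86% per library, and members at a few counts cannot show a moderate difference.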
